A study of Homo sapiens with 4 samples.

Results

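CITED2, its relative CITED4, the acetyltransferases EP300 (p300) and CREBBP (CBP), the hypoxia factor HIF1A with its hydroxylases EGLN1 and EGLN3, and the AP-2 factors TFAP2A and TFAP2C were followed in MCF10A cells. The 9 genes were taken by name from a GENCODE map of transcripts to genes, out of 34500 genes with a matched transcript, and all 9 were among the 14774 genes with enough counts to be compared. They were chosen by a rule that uses the values of TGF-β1 against control within each replicate number, so their own differences between these groups are given as a description, without a test. MCF10A cells are immortalised epithelial cells from human breast that do not form tumours. The treated group was MCF10A stably expressing a scramble shRNA, kept for 1.5 h with TGF-β1 at 5 ng/ml (2 libraries). The control group was the same scramble shRNA line at 0 h, without TGF-β1 (2 libraries). All 4 libraries therefore carry the hairpin, in growth medium with EGF, cholera toxin, insulin, hydrocortisone and horse serum. None of them was kept for 1.5 h without TGF-β1, so TGF-β1 and the 1.5 h of time and handling cannot be told apart. The labels do not say whether the shRNA cells are a pool or a clone, and they call the libraries of a group biological duplicates of this single line.

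CITED2 is a small transcriptional regulator without a DNA-binding domain. It binds the CH1 domain of CBP and p300 tightly, the same domain that the hypoxia factor HIF-1α uses, so that it competes with HIF-1α for the coactivators. CITED2 is itself a HIF target, and it also serves as a coactivator of AP-2 factors by bringing CBP and p300 to them. In normal oxygen the EGLN prolyl hydroxylases mark HIF-1α protein for destruction through VHL, a step that mRNA levels do not show. AP-2α and AP-2γ, the products of TFAP2A and TFAP2C, are factors of epithelial and mammary development.

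Sequence upstream of the start sites was read from RefSeq (GRCh38.p14), where 8 of the 9 genes had an entry. The windows of the relatives CITED2 and CITED4 are shown because the groups were separate for CITED2 and overlapped for CITED4. They hold the 250 bases before a start site, 5′ to 3′ on the gene's strand. The CITED2 window is chr6:139374649-139374898 on the minus strand, upstream of the outermost start at 139374648. The CITED4 window is chr1:40862364-40862613 on the minus strand. Capitals mark matches, on either strand, to CAGAC (the SMAD box), GGCGCC (a GC-rich SMAD element), ACGTG and GCGTG (the hypoxia response cores) and GCCNNNGGC (an AP-2 element).
CITED2: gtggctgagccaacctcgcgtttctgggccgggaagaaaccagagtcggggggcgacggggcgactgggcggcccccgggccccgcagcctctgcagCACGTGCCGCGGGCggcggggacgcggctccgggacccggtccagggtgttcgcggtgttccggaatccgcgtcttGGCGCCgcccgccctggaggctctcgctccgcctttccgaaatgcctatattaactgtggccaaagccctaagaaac
CITED4: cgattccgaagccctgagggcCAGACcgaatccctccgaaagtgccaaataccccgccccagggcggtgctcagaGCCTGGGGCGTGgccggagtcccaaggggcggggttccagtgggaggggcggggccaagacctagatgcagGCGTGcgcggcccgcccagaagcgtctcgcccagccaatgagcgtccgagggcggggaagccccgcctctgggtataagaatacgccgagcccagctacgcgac
In the CITED2 window the hypoxia core ACGTG was matched on both strands in 1 palindrome, at -153 to -148 from the start. The last base of that palindrome is at the same time the first base of an AP-2 match, GCCGCGGGC at -148 to -140. A GGCGCC match followed at -77 to -72, and no CAGAC was found there. The window before an inner CITED2 start at 139374362, which overlaps exons of CITED2-201 and CITED2-204, held GGCGCC and GCGTG in 1 place each. The window before a further inner start at 139374213 held GCGTG in 1 place. The CITED4 window held CAGAC at -229 to -225, GCGTG in 2 places, and an AP-2 match, GCCTGGGGC, that overlaps the upstream GCGTG. The TFAP2A window before the start at 10412391 held CAGAC in 2 places, both on the opposite strand, where the letters read GTCTG. Such short words are common: of 35116 RefSeq windows of this length, 38% held CAGAC, 32.2% GCGTG, 19.8% GCCNNNGGC, 18.5% ACGTG and 16.4% GGCGCC. A match is a description of these letters and not a site.

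The TGF-β1 libraries held 40461473 and 35737659 estimated counts in replicates 1 and 2, against 40792300 and 36693330 in control replicates 1 and 2. The label of mammary epithelium was checked against marker genes: all 8 basal markers were above 1 CPM, with a summed level of 9995 to 13346 CPM in TGF-β1 libraries and 8597 to 12230 CPM in control libraries. Luminal markers were above 1 CPM in 5 of 7 cases (576 to 709 CPM in sum with TGF-β1, 540 to 741 CPM in control). Fibroblast markers were above 1 CPM in 2 of 6 cases, with sums of 30.9 to 31.0 CPM with TGF-β1 and 26.1 to 28.4 CPM in control. Most of that was DCN, at 21.5 and 25.7 CPM in TGF-β1 replicates 1 and 2, and at 23.6 and 22.7 CPM in control. Blood or endothelial markers were above 1 CPM in 2 of 6 cases. CD14 was at 24.9 and 40.7 CPM with TGF-β1 and at 28.4 and 40.3 CPM in control, while CD3E was at 0 in all 4 libraries. SMAD7, the inhibitory SMAD that TGF-β induces, was at 129 and 100 CPM in TGF-β1 replicates 1 and 2, against 8.58 and 8.27 CPM in control. SKIL, a SMAD repressor, was at 181 and 187 CPM with TGF-β1 against 56.4 and 43.7 CPM in control. In both groups replicate 2 differed from replicate 1: ribosomal protein genes took 6.84% and 8.96% of counts in TGF-β1 replicates 1 and 2, and 6.87% and 8.73% in control replicates 1 and 2. What part this difference between replicate numbers plays in the values below was not tested.

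CITED2 was lower at 1.5 h with TGF-β1 than in the 0 h control in both replicates. It was at 3.32 and 5.39 CPM (counts scaled to library size) in TGF-β1 replicates 1 and 2, and at 9.69 and 16.3 CPM in control replicates 1 and 2. The groups did not overlap, and the libraries numbered 2 were the higher ones on both sides. The values rest on 130 and 186 estimated counts with TGF-β1, and on 385 and 598 in control. The mean was 4.36 ± 1.46 CPM with TGF-β1 and 13.0 ± 4.69 CPM in control (SD, n = 2 each), 2.99-fold lower with a log2 fold change of -1.58. Within replicate 1 the log2 fold change was -1.53 and within replicate 2 it was -1.59. Only 26 of the 14774 genes compared had a lower log2 fold change, a rank that the choice of the gene already used. In bulk RNA, fewer cells with this mRNA and less of it per cell cannot be told apart. Leaving out 1 library at a time or changing the scaling, filter or unit gave CITED2 log2 fold changes between -1.96 and -1.15 in the 13 alternatives. As the groups were separate, leaving out 1 library could not change the sign, so only the range is of use.

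CITED4, the relative that also binds CBP and p300, did not separate the groups. It was at 5.83 and 8.17 CPM in TGF-β1 replicates 1 and 2, and at 6.92 and 9.06 CPM in control. Its log2 fold change was -0.25 within replicate 1 and -0.15 within replicate 2, both on the lower side. On the length-corrected TPM scale the ratio of CITED2 to CITED4 was 0.473 and 0.564 in TGF-β1 replicates 1 and 2, and 1.03 and 1.34 in control. CITED2 was thus the less abundant of the pair in both TGF-β1 libraries. It had the higher value in both controls, but only just in replicate 1, and the control ranges of the pair overlapped. The CITED2 TPM includes CITED2-204, a short transcript of 901 bases. In control replicates 1 and 2 it held 30.6% and 33.0% of that TPM from 55.2 and 93.4 estimated counts. The order of the pair in control therefore depends on this transcript. CITED1, the remaining human relative with a known role in mammary gland development, was near the limit of detection, at 0.332 and 0.435 CPM with TGF-β1 and 0.302 and 0.573 CPM in control.

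**Figure D1:**
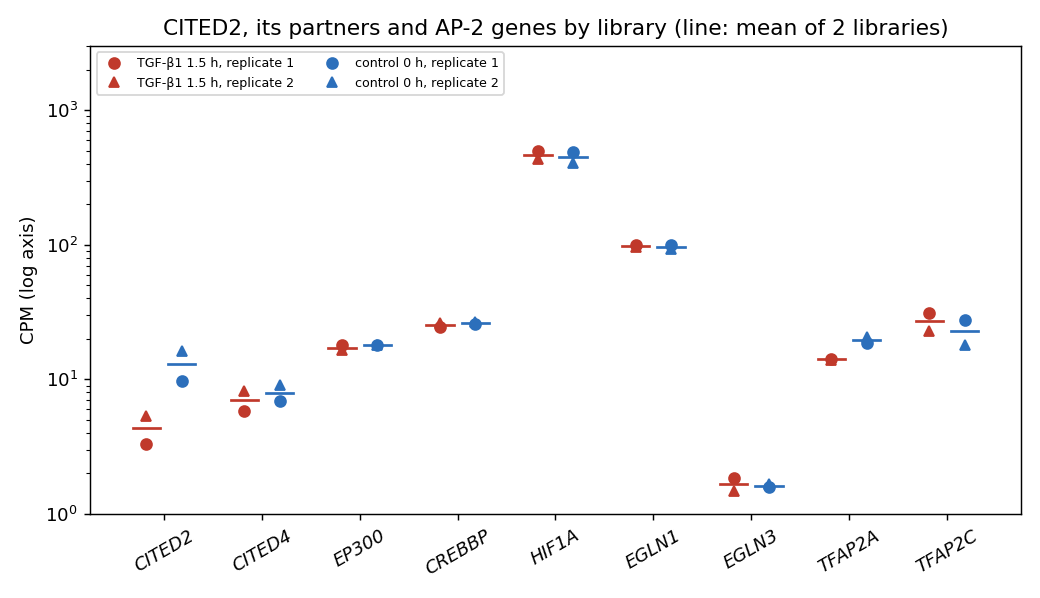
Level of the 9 genes in each library, in CPM on a log axis, with TGF-β1 left of control and a line at the mean of 2 libraries. Both TGF-β1 libraries lay below both controls for CITED2 and TFAP2A, while the groups of the other 7 genes overlapped.

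The coactivators that CITED2 occupies had nearly the same level in both groups. EP300 was at 17.9 and 16.5 CPM in TGF-β1 replicates 1 and 2, and at 17.9 and 17.96 CPM in control. CREBBP was at 24.4 and 26.2 CPM in TGF-β1 libraries and at 25.9 and 26.5 CPM in control. The log2 fold changes were -0.06 for EP300 and -0.05 for CREBBP, and the groups overlapped for both. Corrected for length, EP300 stood below CREBBP in every library, with a TPM ratio of 0.499 and 0.371 in TGF-β1 replicates 1 and 2, and 0.503 and 0.470 in control. The CREBBP TPM includes short transcripts with few counts. In TGF-β1 replicate 2, CREBBP-205 and CREBBP-206 held 17.4% and 12.7% of it from 12.6 and 13.7 estimated counts. EP300 had 1 quantified transcript, so the size of the ratio depends on which transcripts are annotated.

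HIF1A, the competitor of CITED2 for CBP and p300, was the most abundant of the 9 mRNAs. It was at 497 and 437 CPM in TGF-β1 replicates 1 and 2, and at 491 and 406 CPM in control. Each replicate number gave a value slightly above its control, with log2 fold changes of 0.02 and 0.10, and the groups overlapped. EGLN1 (PHD2), the main HIF hydroxylase in normal oxygen, was at 99.1 and 95.6 CPM with TGF-β1 and at 99.2 and 92.6 CPM in control. EGLN3 (PHD3), which is known as a strongly hypoxia-induced HIF target, was barely expressed. It was at 1.84 and 1.48 CPM in TGF-β1 replicates 1 and 2, and at 1.59 and 1.67 CPM in control, and its log2 fold change had opposite signs within replicate 1 (0.21) and replicate 2 (-0.17).

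TFAP2A (AP-2α) was the other gene with separate groups. It was at 14.1 and 14.02 CPM in TGF-β1 replicates 1 and 2, and at 18.8 and 20.7 CPM in control. The mean was 14.1 ± 0.083 CPM with TGF-β1 and 19.7 ± 1.41 CPM in control (SD, n = 2 each), 1.40-fold lower with a log2 fold change of -0.49. It was -0.41 within replicate 1 and -0.56 within replicate 2, and between -0.55 and -0.41 in the 13 alternatives. TFAP2C (AP-2γ) lay on the other side within each replicate number, but its groups overlapped. It was at 30.9 and 23.0 CPM in TGF-β1 replicates 1 and 2, and at 27.8 and 17.9 CPM in control, with log2 fold changes of 0.16 and 0.36. The TPM ratio of TFAP2A to TFAP2C was 0.566 and 0.834 in TGF-β1 replicates 1 and 2, and 0.860 and 1.62 in control. Each TGF-β1 library thus had a lower share of TFAP2A than the control of its number, and the difference between replicate numbers was about as wide.

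Both TGF-β1 libraries lay below both controls in 2 of the 9 genes and above them in none. Of all 14774 genes, 8.34% lay below and 7.87% above in this sense, and nothing is read from the count of 2, since the rule used the same contrast. For a single gene, 2 against 2 libraries cannot give a two-sided exact permutation p below 0.333.

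**Figure D2:**
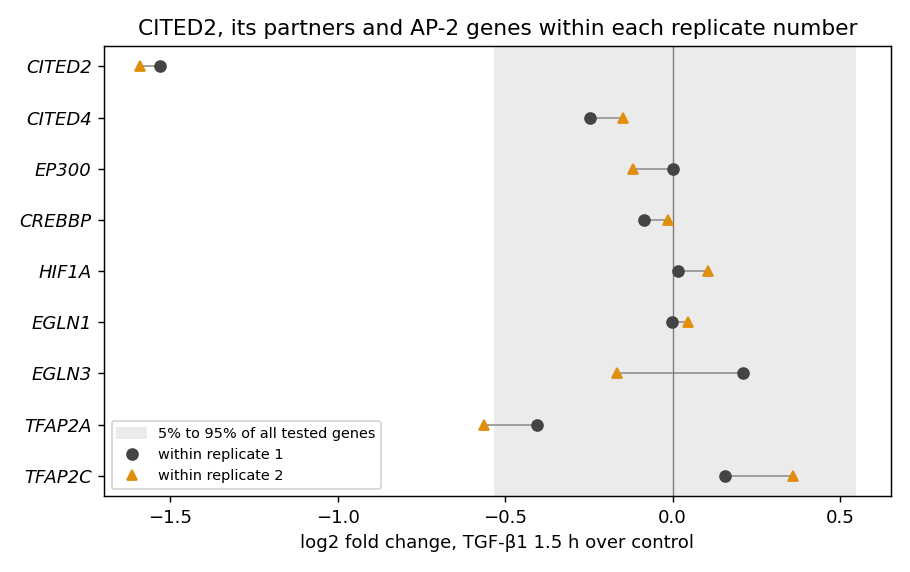
Log2 fold change of TGF-β1 over control for each gene within replicate 1 (circles) and within replicate 2 (triangles), with a band from the lower of the 5% quantiles to the higher of the 95% quantiles of the 14774 genes compared (-0.53 to 0.54). CITED2 lay outside the band in both replicates and TFAP2A in replicate 2, and the other 7 genes lay within it.

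By length-corrected level the control order was HIF1A at 231 and 189 TPM, EGLN1 at 43.5 and 38.9 TPM, TFAP2A at 12.3 and 14.4 TPM, TFAP2C at 14.3 and 8.92 TPM and CITED2 at 8.36 and 13.9 TPM in replicates 1 and 2. CITED4 followed at 8.12 and 10.4 TPM, CREBBP at 5.09 and 5.35 TPM, EP300 at 2.56 and 2.52 TPM and EGLN3 at 1.19 and 1.21 TPM. The EGLN1 value includes a non-coding transcript, and the coding EGLN1-201 alone was at 16.7 and 15.4 TPM in control replicates 1 and 2. The control ranges of TFAP2A and TFAP2C overlapped, as did those of TFAP2C and CITED2 and those of CITED2 and CITED4, so these neighbours have no order beyond their spread. In the TGF-β1 libraries CITED2 was at 3.24 and 5.10 TPM, below CITED4 at 6.86 and 9.04 TPM. It was also below CREBBP at 5.14 and 5.93 TPM in the library of the same number, a gene that lay under CITED2 in both controls. The CREBBP value of TGF-β1 replicate 2 rests in part on short transcripts with few counts.

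CITED2 lies on chromosome 6 (139371807 to 139374620, minus strand, GRCh38), and 4 of its transcripts were quantified. Their starts form an outer pair, CITED2-201 and CITED2-204, and an inner pair, CITED2-202 and CITED2-203. CITED2-202 begins at the inner RefSeq start at 139374362 and CITED2-203 at the one at 139374213. The outer pair held 58.3 and 133 estimated counts in TGF-β1 replicates 1 and 2, against 259 and 417 in control. The inner pair held 71.7 and 53.3 estimated counts in TGF-β1 libraries, against 126 and 181 in control. Both pairs were thus lower with TGF-β1 within each replicate number. The outer pair had 44.8% and 71.4% of the gene's counts with TGF-β1, against 67.2% and 69.8% in control, so that only TGF-β1 replicate 1 stood apart. Within the inner pair the assignment jumped between libraries: CITED2-202 had 71.5 counts in TGF-β1 replicate 1 and 173 in control replicate 2, and about 0 in the other libraries, where CITED2-203 took 53.3 and 126 counts. The shares of single CITED2 transcripts are therefore given no weight. CITED2-201 and CITED2-202 encode the same length of 270 residues, CITED2-203 encodes 275 and CITED2-204 encodes 213.

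TFAP2A lies on chromosome 6 (10393186 to 10419659, minus strand), and 9 of its 19 quantified transcripts had a mean of at least 10 estimated counts. TFAP2A-203, which encodes 439 residues, led in every library. It had 367 and 278 estimated counts in TGF-β1 replicates 1 and 2, against 530 and 477 in control. All other TFAP2A transcripts together had 186 and 206 counts with TGF-β1, against 215 and 283 in control, so the lower side held for the leading transcript and for the remainder within each replicate number. TFAP2A-202 begins close to the RefSeq start named above. It had 52.7 and 52.3 counts with TGF-β1, against 54.9 and 63.1 in control, which is a small part of the gene's difference. Sequence upstream of TFAP2A-203 was not analysed here.

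HIF1A, on chromosome 14 (61695513 to 61748259, plus strand), was carried by HIF1A-202 with 69.7% and 65.0% of its counts in TGF-β1 replicates 1 and 2, against 73.1% and 65.9% in control. HIF1A-203, which is 3 bases longer and encodes 827 residues in place of 826, took 23.4% and 27.6% with TGF-β1, against 20.4% and 27.1% in control. CREBBP was split between CREBBP-201 (2442 residues) and CREBBP-202 (2404 residues). CREBBP-201 had 55.6% and 43.8% of the gene's counts in TGF-β1 libraries, against 53.2% and 49.7% in control, a difference between groups smaller than that between replicate numbers. EGLN1-201, the coding transcript, held 87.8% and 88.8% of EGLN1 counts with TGF-β1, against 86.7% and 87.3% in control. Of the EGLN1 TPM it held only 40.6% and 42.5% with TGF-β1, against 38.4% and 39.6% in control. The rest of the TPM fell to EGLN1-202, a non-coding transcript of 829 bases. EP300 and CITED4 had 1 quantified transcript each, of 2414 and 184 residues. TFAP2C-201 carried at least 99.6% of TFAP2C counts in each library.

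**Figure D3:**
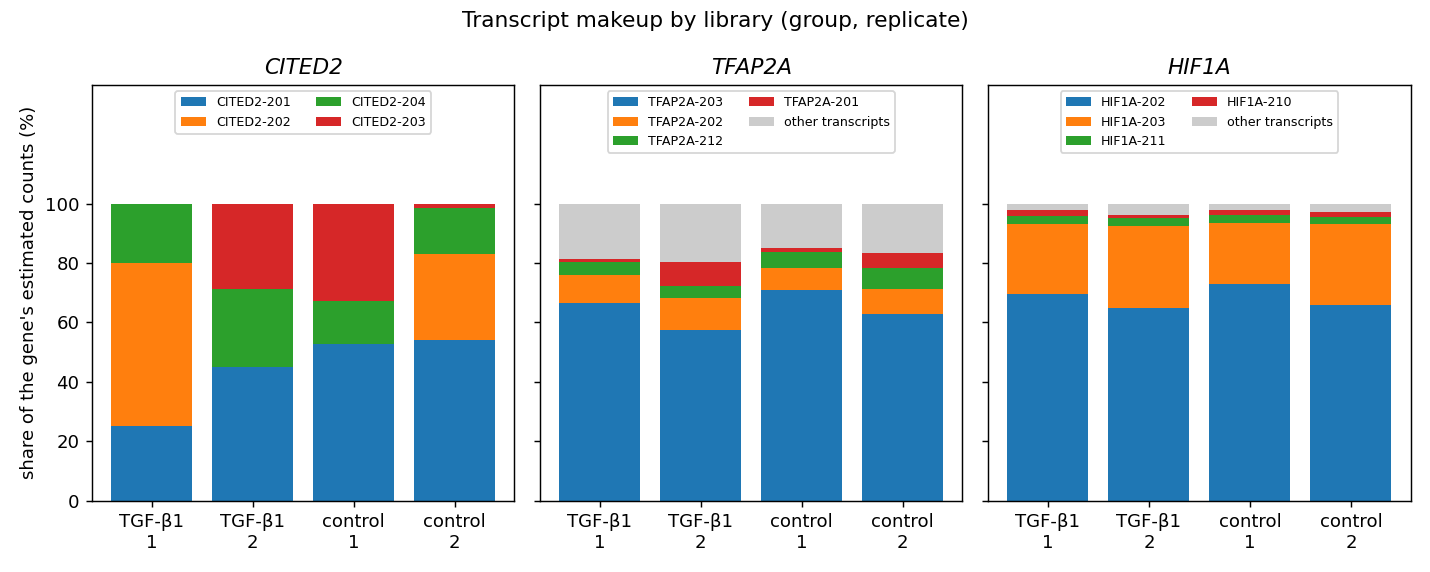
Share of each gene's estimated counts by transcript, in percent, for CITED2, TFAP2A and HIF1A in each library, with the TGF-β1 libraries left of the controls. TFAP2A-203 and HIF1A-202 led in all 4 libraries, while CITED2-202 and CITED2-203 exchanged their counts between libraries.

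Of genes outside the set with a mean of at least 10 CPM (9370 compared), those whose 4 centred log2 CPM values lay nearest to the values of CITED2 were CEBPD, MYC and PLK2, at Euclidean distances of 0.384, 0.437 and 0.497. CEBPD, a C/EBP transcription factor, was at 18.3 and 25.4 CPM in TGF-β1 replicates 1 and 2, and at 36.6 and 78.8 CPM in control. MYC, a growth-promoting factor that TGF-β is known to repress in epithelium, was at 123 and 241 CPM with TGF-β1 and at 404 and 489 CPM in control. PLK2, a polo-like kinase, was at 21.0 and 31.6 CPM with TGF-β1 against 81.9 and 87.0 CPM in control. The likeness is over 4 libraries and describes their pattern only.

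Among 30 known HIF target genes, a list chosen from textbook knowledge with earlier results of these data known, BHLHE40, VEGFA and PFKFB3 were higher with TGF-β1. BHLHE40, a helix-loop-helix repressor, was at 281 and 351 CPM in TGF-β1 replicates 1 and 2, and at 61.0 and 60.1 CPM in control. Its log2 fold change was 2.38 ± 0.16 (SE), with an adjusted p of 6.87e-23 by DESeq2's Wald test and of 0.159 by edgeR's quasi-likelihood test. VEGFA, the endothelial growth factor, was at 173 and 137 CPM with TGF-β1 and at 55.7 and 35.4 CPM in control, a log2 fold change of 1.77 ± 0.28 with an adjusted p of 1.11e-05 by DESeq2 and of 0.731 by edgeR. PFKFB3, an enzyme that makes the glycolysis activator fructose 2,6-bisphosphate, was at 119 and 99.3 CPM with TGF-β1 and at 36.5 and 31.6 CPM in control. Its log2 fold change was 1.68 ± 0.16, with an adjusted p of 1.07e-09 by DESeq2 and of 0.217 by edgeR. In all 3 genes both TGF-β1 libraries lay above both controls, and DESeq2 called them also without any 1 of the 4 libraries.

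The other 27 HIF targets passed neither of these tests, in which the replicate number is no term. ANGPTL4, a secreted inhibitor of lipoprotein lipase, was at 381 and 243 CPM in TGF-β1 replicates 1 and 2, and at 185 and 70.9 CPM in control, with an adjusted p of 0.885 by DESeq2. It was called by DESeq2 when control replicate 1 was left out (adjusted p = 1.46e-06). NDRG1, a stress-responsive gene, was at 182 and 167 CPM with TGF-β1 and at 118 and 105 CPM in control, with an adjusted p of 0.295 by DESeq2. SLC2A1, the glucose transporter GLUT1, was at 137 and 119 CPM with TGF-β1 and at 113 and 96.3 CPM in control, so that its groups were separate as well. The glycolytic enzymes LDHA and PGK1 had log2 fold changes of 0.003 and 0.05, and CA9, the carbonic anhydrase that marks hypoxia, was at 4.602 and 1.27 CPM with TGF-β1 and at 4.13 and 1.75 CPM in control. The median log2 fold change of the 30 was 0.06, against -0.005 over all genes compared. In 18 of the 30 (60%) the value was above control within both replicate numbers and in 3 (10%) below, against 26.3% and 28.6% of all genes compared. The 18 include small values, such as those of PGK1 with 0.05 within each replicate number. Because the list was chosen with earlier results of these data known, nothing is read from its median, these shares or its number of calls. DESeq2 called 3 of the 30 higher and 0 lower, where it called 0.422% of 19649 genes with an adjusted p higher (83) and 0.0356% lower (7). edgeR called 0 of 14774 genes (0.0%) and 0 of the 30. Its unadjusted p was under 0.05 for 255 genes, among them 4 of the 30 (BHLHE40, PFKFB3, VEGFA and NDRG1, all higher).

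**Figure D4:**
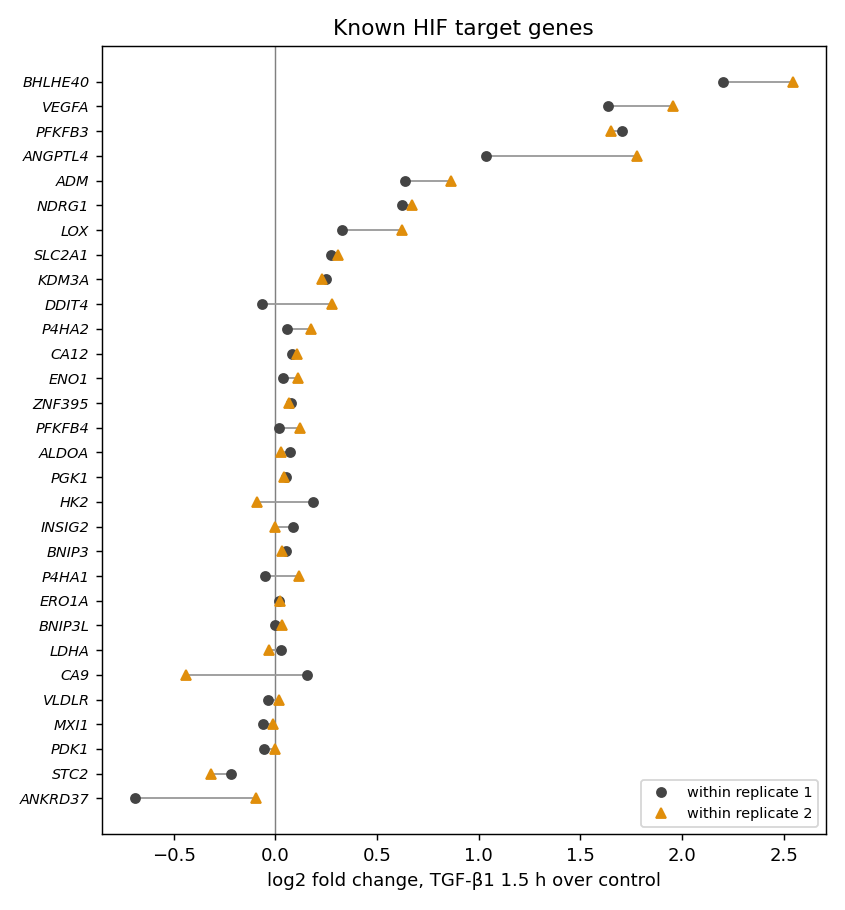
Log2 fold change of TGF-β1 over control for 30 known HIF target genes, within replicate 1 (circles) and within replicate 2 (triangles), joined by a line and ordered by the fold change over both. BHLHE40, VEGFA and PFKFB3 lay above 1.5 in both replicates, and most others lay close to 0.

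The remaining genes of the HIF arm had log2 fold changes from -0.14 to 0.28. Of 13 subunits and oxygen sensors, DESeq2 and edgeR called 0 in either direction, with 0 at an unadjusted edgeR p under 0.05 and a median log2 fold change of 0.05. EPAS1 (HIF-2α) was at 259 and 257 CPM in TGF-β1 replicates 1 and 2, and at 206 and 219 CPM in control, a log2 fold change of 0.28 ± 0.11 (SE) with an unadjusted edgeR p of 0.0669. Both TGF-β1 libraries lay above both controls for EPAS1 and ARNT, and below them for SIAH2. With a term for the replicate number, edgeR called EPAS1 (adjusted p = 0.0405). ARNT, the shared β subunit, was at 56.2 and 57.4 CPM with TGF-β1 and at 55.3 and 52.7 CPM in control. SIAH2, a ubiquitin ligase of EGLN proteins, was at 28.5 and 26.9 CPM with TGF-β1 against 30.7 and 30.4 CPM in control. ELOB, a subunit of the VHL ligase, was at 224 and 256 CPM with TGF-β1 against 217 and 231 CPM in control.

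The 17 other acetyltransferases and CREB coactivators gave 0 calls by either tool (0 with an unadjusted edgeR p under 0.05), with log2 fold changes from -0.10 to 0.12 and a median of 0.02. KAT5 (TIP60) was at 33.4 and 34.2 CPM in TGF-β1 replicates 1 and 2, and at 33.2 and 29.3 CPM in control. KAT8 was at 18.3 and 22.2 CPM with TGF-β1 and at 16.3 and 21.0 CPM in control. NCOA1, a nuclear receptor coactivator, was at 17.6 and 13.5 CPM with TGF-β1 against 16.4 and 12.2 CPM in control. The small values of EP300 and CREBBP lay inside the range of the other 17 coactivators.

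On the AP-2 side, 4 of 7 family members and inhibitors could be compared. TFAP2B and TFAP2D were at 0 in every library and TFAP2E was at 0.128 CPM or less, so TFAP2A and TFAP2C were the AP-2 mRNAs of these cells with more than trace counts. KCTD15, an inhibitor of AP-2α, was at 41.3 and 39.8 CPM in TGF-β1 replicates 1 and 2, and at 37.4 and 36.7 CPM in control. KCTD1, its relative, was at 38.9 and 34.6 CPM with TGF-β1 against 38.1 and 35.6 CPM in control. WWOX, which binds AP-2γ, was at 8.49 and 13.5 CPM with TGF-β1 against 9.01 and 13.9 CPM in control. Neither DESeq2 nor edgeR called any of the 4, and 0 had an unadjusted edgeR p under 0.05.

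Of 14 known AP-2 target genes, 11 could be compared, with a median log2 fold change of -0.005 and 0 calls by DESeq2 and edgeR. An unadjusted edgeR p under 0.05 was found for 1 gene, CDKN1A, the cell-cycle inhibitor p21 that TGF-β is also known to induce. CDKN1A was at 280 and 246 CPM in TGF-β1 replicates 1 and 2, and at 175 and 156 CPM in control, a log2 fold change of 0.67 ± 0.14 (SE) with an adjusted p of 0.277 by DESeq2. KRT14, a basal keratin, was at 327 and 385 CPM with TGF-β1 and at 304 and 311 CPM in control. ESR1, the oestrogen receptor, was at 5.93 and 5.45 CPM with TGF-β1 against 6.29 and 5.98 CPM in control, and FOXA1, a luminal pioneer factor, at 14.7 and 7.73 CPM with TGF-β1 against 11.5 and 7.92 CPM in control. ERBB2, the best known AP-2 target in breast, was at 70.7 and 90.4 CPM with TGF-β1 and at 69.0 and 86.5 CPM in control, and was named after its values were seen.

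CITED2's own relatives, partners and repressed genes were compared in 10 of 13 cases, with a median log2 fold change of 0.00 and 0 calls by either tool, and 0 at an unadjusted edgeR p under 0.05. SMAD2 and SMAD3, with which CITED2 has been reported to cooperate in TGF-β responses, were at similar levels in both groups. SMAD2 was at 157 and 164 CPM in TGF-β1 replicates 1 and 2, and at 158 and 165 CPM in control. SMAD3 was at 54.1 and 35.8 CPM with TGF-β1 and at 46.8 and 33.5 CPM in control. PPARG, a nuclear receptor that CITED2 coactivates, was at 16.3 and 12.1 CPM with TGF-β1 against 14.5 and 11.5 CPM in control. ISL1, a homeodomain factor, was at 0.741 and 1.04 CPM in TGF-β1 libraries and at 1.41 and 1.47 CPM in control.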

How the data were processed

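RNA of MCF10A cells was prepared as stranded, ribosomal-RNA-depleted paired-end libraries per the labels' protocols, while the molecule field names polyA RNA. The same protocol text mentions overexpression of PHF8, which no label gives to these 4 libraries. Per the submitters' processing notes, transcripts of GRCh38 were quantified by the authors with kallisto; the sources used here give no version, transcript release or strand setting. Each deposited table holds an estimated count per transcript, per the file headers. They also hold TPM per transcript, which the authors' tool corrects for transcript length. Estimated counts share reads among transcripts and overlapping genes, so antisense partners of CITED2, EP300, HIF1A, EGLN3 and TFAP2A, which were not analysed here, could take or lend reads.

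Of 173259 transcripts, 159239 (91.91%) matched GENCODE release 29 and were summed to genes; unmatched ones held 2.24% to 2.38% of counts. Gene sums were rounded to whole numbers, scaled by TMM, kept by filterByExpr (14774 genes) and compared with edgeR 4.0.16 (quasi-likelihood, Benjamini-Hochberg over these genes, threshold 0.05) in R 4.3.3. CPM values are from the same scaling, and values within a replicate number use a prior count of 2. An SE is the log2 fold change over the root of its F statistic. DESeq2 1.42.0 (19649 genes with an adjusted p) was an alternative, as were RLE scaling, other filters (none, or at least 50 counts), an offset of transcript lengths, a block for the replicate number, fits that each lack 1 library, limma 3.58.1 on log2(TPM + 1) or log2(TPM + 0.1), and a threshold of 0.01. DESeq2 without each library was added after the data were seen. The edgeR and DESeq2 fits were also run on simulated counts, whose outcome is not used here.

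The 9 genes and the 6 gene lists were chosen with earlier results of these data known. Named were the 9 genes, SMAD7, SKIL, CITED1, the 3 nearest to CITED2 and, per list, every gene called by edgeR or DESeq2, otherwise up to 4 with the smallest edgeR p and a mean of at least 1 CPM. NDRG1, ANGPTL4, SLC2A1, LDHA, PGK1, CA9, TFAP2B, TFAP2D, TFAP2E and ERBB2 were added after their values were seen. The results of 3 other genes that this rule takes are left out of the text. Counts are of PCR-amplified reads. The p-values set the difference between groups against a spread between 2 libraries of 1 line, which is estimated partly from the other genes.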

Additional observations from a re-analysis of the deposited data

How the results depend on the processing

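With 2 libraries a group, calls depend on the test. Over all genes edgeR called 0, DESeq2 90 (83 higher, 7 lower), edgeR without the filter 15 and with transcript lengths as an offset 3. Leaving out 1 library at a time gave edgeR 8 to 25 calls. DESeq2 had 46 and 71 when TGF-β1 replicates 1 and 2 were left out in turn, and 67 and 62 when control replicates 1 and 2 were. RLE scaling, at least 50 counts, limma and the threshold of 0.01 gave 0. Of the HIF targets, edgeR called 0, DESeq2 3, edgeR without the filter 1 and edgeR without 1 library 0 to 2. DESeq2 had 4 without control replicate 1 and 3 without each of the others. The counts of the other 5 lists did not move under these settings.

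No label ties a replicate number to a batch, but same-numbered libraries deviated together (correlation 0.66 over genes). With the replicate block, edgeR called 335 genes (259 higher, 76 lower). Among them were 9 HIF targets, 8 higher (BHLHE40, PFKFB3, VEGFA, NDRG1, ANGPTL4, ADM, LOX, SLC2A1) and 1 lower (STC2), with 1 of the subunits and sensors (EPAS1) and 1 AP-2 target (CDKN1A), and none of the other 3 lists.

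CITED2 and TFAP2A kept a negative log2 fold change under each alternative, which their separate groups had fixed for the fits that lack 1 library. The signs of the other 7 genes each depended on at least 1 setting; TFAP2C ran from -0.04 to 0.60 and CITED4 from -0.45 to 0.03. The EGLN1-201 share was 2.58 points of TPM higher with TGF-β1, and 1.29 points by counts. The CITED2-201 share, TGF-β1 minus control, differed by -16.4 points of TPM, and by -22.1 to -10.7 with 1 library left out. Its groups were separate, so leaving out 1 library could not change this sign. As said above, shares of single CITED2 transcripts are given no weight. The share differences of CREBBP-201, HIF1A-202, EGLN3-201, TFAP2A-203 and TFAP2C-201 changed sign without at least 1 library. Depth limits the precision of EGLN3 (51 to 72 counts a library), CITED2 (130 to 598) and CITED4 (228 to 332).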
